A study of Mus musculus with 13 samples.

Results

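The genes described here encode sorting nexins (symbols beginning with Snx) and vacuolar protein sorting factors (symbols beginning with Vps). They were taken as every gene symbol made of Snx or Vps, a number and at most 1 further letter, which gave 61 of the 20662 symbols listed, 30 Snx and 31 Vps genes. The series profiled germ cells from the testes of C57BL/6 mice, aged 8 weeks, by directional RNA-seq after depletion of ribosomal RNA. The values used here are those of its 2 spermatogonial samples, titled KIT_AGSC and THY1_AGSC, with 1 library each. The labels give no treatment or genetic change for either, and the remaining 11 samples of the series (spermatocytes, spermatids and mature sperm) were not used here. KIT, a receptor tyrosine kinase, marks spermatogonia that have begun to differentiate, and THY1 is a surface antigen by which undifferentiated spermatogonia are enriched. With 1 library per group there is no replicate check and no test, so every difference below compares 2 libraries and carries no p-value.

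The antigen transcripts ran opposite to the sample titles. Kit was listed at 0 in the KIT-labelled library and at 36.7 FPKM in the THY1-labelled library, while Thy1 was at 78.8 FPKM in the KIT-labelled library and at 0.723 FPKM in the THY1-labelled library. The headers of the value columns carry the other antigen's name as well, Thy1 for the sample titled KIT and Kit for the sample titled THY1. Directions below follow the sample titles and would all turn if the titles were exchanged. FPKM counts fragments per kilobase of transcript, scaled to the total of mapped fragments, so levels of different genes are compared here per length. A value of 0 is given only as listed at 0, with no fold.

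Sorting nexins are peripheral membrane proteins that share a PX domain, which binds phosphoinositide lipids, mainly phosphatidylinositol 3-phosphate on endosomes. Many VPS genes were first found in budding yeast by mutants that failed to deliver proteins to the vacuole, the yeast counterpart of the lysosome. Together they form the machines that decide the fate of a membrane protein after uptake: retromer and its nexins return it to the Golgi or the cell surface, ESCRT complexes pack it into vesicles for destruction, and tethers fuse the carriers with their targets. In the testis these routes also feed the acrosome, a lysosome-related organelle of the sperm head built after meiosis.

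Most of these genes were higher in the THY1-labelled library. Of the 61, 55 reached 1 FPKM in either library. Of these 55, 11 (20%) were higher by at least 2-fold in the KIT-labelled library on the log2(FPKM + 1) scale, 33 (60%) were higher by at least 2-fold in the THY1-labelled library, and 11 lay within 2-fold. Over all 15573 genes that reached 1 FPKM, 39.5% were higher by at least 2-fold in the KIT-labelled library and 41.1% in the THY1-labelled library. The median difference, as labelled KIT minus labelled THY1, was -1.93 over the 55 genes, against -0.0026 over all genes that reached 1 FPKM. The lowest, median and highest values over the 61 genes were 0, 3.06 and 231 FPKM in the KIT-labelled library and 0, 17.4 and 370.5 FPKM in the THY1-labelled library. Values above 10 FPKM were reached by 20 genes in the KIT-labelled library and by 38 in the THY1-labelled library. The 6 genes below 1 FPKM in both libraries were Vps4b, Vps37d, Snx18, Snx20, Snx24 and Snx31, of which Snx20 was listed at 0 in both.

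The noncoding RNA Rpph1 made up 71.8% of the summed FPKM of the KIT-labelled library and 37.9% of that of the THY1-labelled library. Scaled to equal sums without it, 12 of the 55 genes were higher by at least 2-fold in the KIT-labelled library and 32 in the THY1-labelled library, with a median difference of -1.72, and the shares over all genes were 41.8% and 39.3%. The depth of the libraries is unknown. A low-end estimate put the worth of a single fragment, over the lengths of these genes, at a median of 0.866 FPKM in the KIT-labelled library and 0.135 FPKM in the THY1-labelled library, a ratio of 6.40. By this estimate 11 of the 47 values above 0 in the KIT-labelled library rested on fewer than 3 fragments and 27 on fewer than 10, against 4 and 8 of the 59 in the THY1-labelled library. Low levels in the KIT-labelled library are therefore imprecise, and a level of 1 FPKM is reached there with fewer fragments. With the minimum set at a larger value worth about 10 fragments, chosen after the data had been seen, 8 of 50 genes (16%) were higher in the KIT-labelled library and 33 (66%) in the THY1-labelled library. The shares over all genes were then 30.8% and 51.4%, and the medians were -2.20 for the 50 genes and -1.11 for all genes, so the distance between these genes and the rest was smaller under that minimum.

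Markers of other testis cells also differed between the libraries. Summed over 9 genes of pachytene spermatocytes, the level was 168 FPKM in the KIT-labelled library, with Dmc1 and Adam2 listed at 0, and 7693 FPKM in the THY1-labelled library, and all 9 were larger in the THY1-labelled library. The 7 genes of Leydig cells, which make testosterone, summed to 185 FPKM in the KIT-labelled library, with Hsd17b3 and Hsd3b6 listed at 0, and to 12849.7 FPKM in the THY1-labelled library, again with all 7 larger there. The 8 spermatid genes summed to 4899.6 FPKM in the KIT-labelled library, with Spaca1 and Crem listed at 0, and to 922 FPKM in the THY1-labelled library, 5 of them larger in the KIT-labelled library. Sertoli genes (8) summed to 43.3 FPKM (labelled KIT) and 1271 FPKM (labelled THY1), 4 larger in each, with Vim listed at 0 in the KIT-labelled library. Macrophage genes (9) summed to 270.5 FPKM (labelled KIT) and 967 FPKM (labelled THY1), 5 of them larger in the KIT-labelled library, with C1qc listed at 0 in the THY1-labelled library. Peritubular genes (7) summed to 226 FPKM (labelled KIT) and 172 FPKM (labelled THY1), 5 of them larger in the KIT-labelled library and 1 in the THY1-labelled library, with Des listed at 0 in both. Spermatogonial genes (12) summed to 267 FPKM in the KIT-labelled library, with Kit, Zbtb16, Etv5 and Dmrt1 listed at 0, and to 91.2 FPKM in the THY1-labelled library, with Zbtb16 listed at 0, and 7 were larger in the KIT-labelled library and 4 in the THY1-labelled library. The part of these cells in the differences of the sorting genes was not tested. In such bulk samples fewer cells of a type and less RNA per cell cannot be told apart.

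**Figure D1:**
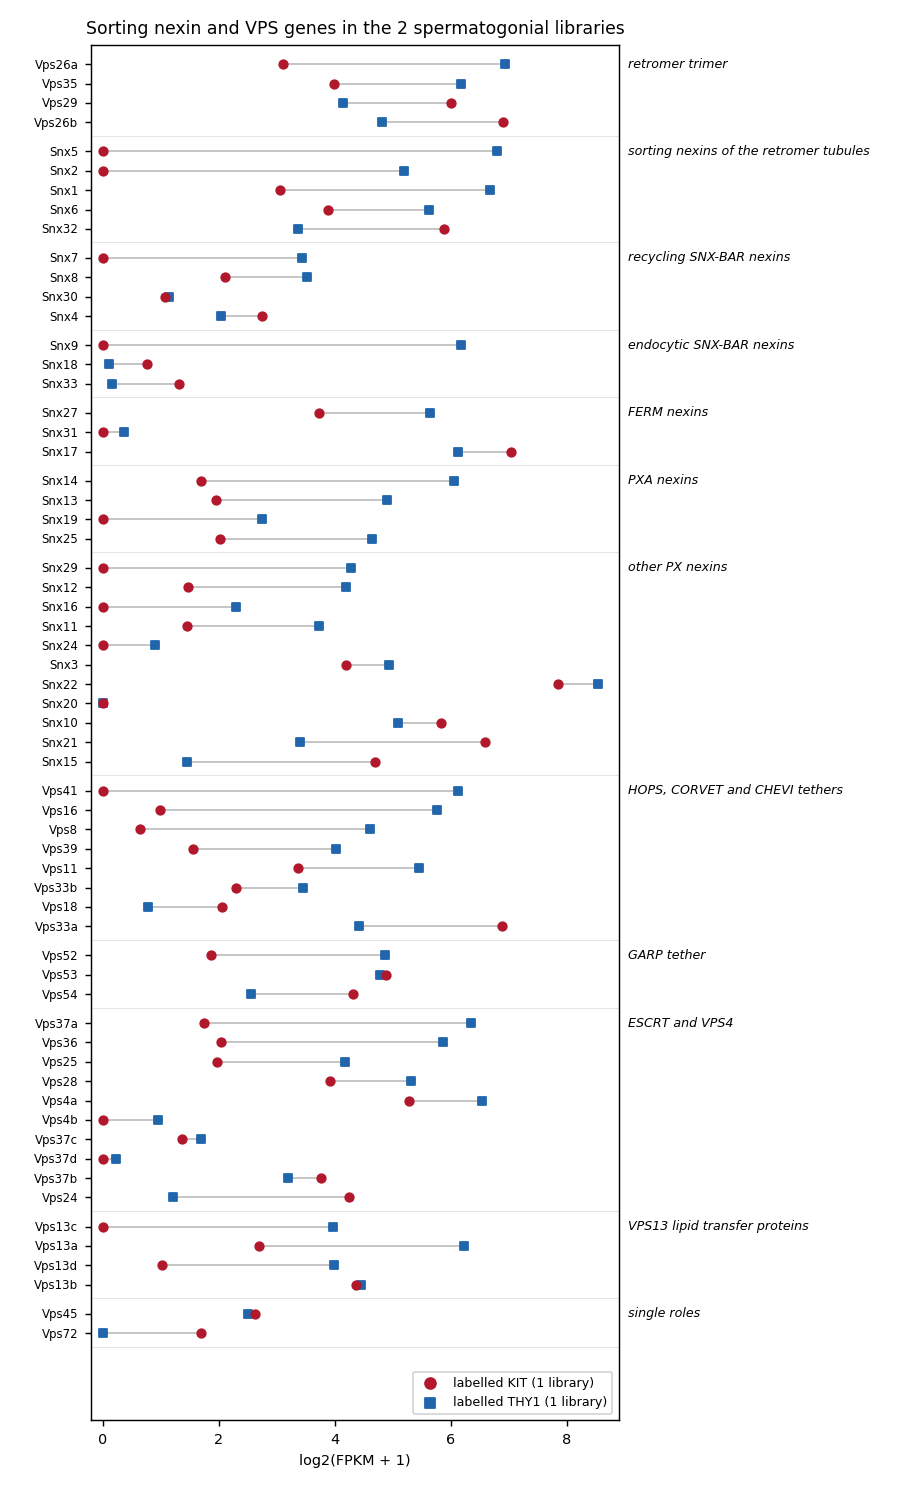
Level of each of the 61 genes as log2(FPKM + 1), with red circles for the KIT-labelled library and blue squares for the THY1-labelled library, grouped by role and ordered within a role by the difference. In most roles the blue squares lie to the right, while Vps26b, Vps29, Vps33a, Snx32, Snx21, Snx15 and Vps24 have the red circle on the right.

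Of the 4 genes of the retromer trimer, 2 (50%) were higher by at least 2-fold in the KIT-labelled library and 2 (50%) in the THY1-labelled library, shares near those over all genes. VPS35, the scaffold on which the complex is built, was at 15.0 FPKM in the KIT-labelled library and at 71.2 FPKM in the THY1-labelled library. Vps29, which encodes the small subunit with a phosphoesterase fold, was the reverse at 63.5 FPKM (labelled KIT) and 16.7 FPKM (labelled THY1) (a difference of 1.86 on the log2 scale). The third subunit is the arrestin-like VPS26, encoded by either of a pair of genes. Vps26a was at 7.63 FPKM in the KIT-labelled library and at 122 FPKM in the THY1-labelled library, a difference of -3.83. Vps26b was at 118 FPKM in the KIT-labelled library and at 27.3 FPKM in the THY1-labelled library, a difference of 2.07. The summed level of the pair was closer, at 126 FPKM in the KIT-labelled library and 149 FPKM in the THY1-labelled library. Vps26b made up 93.9% of that sum in the KIT-labelled library and 18.3% in the THY1-labelled library. By the fragment estimate Vps26b rested on about 154 fragments in the KIT-labelled library and Vps26a on about 7.57.

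The nexins that bend endosomal membrane into tubules carry a BAR domain. SNX1 or SNX2 pairs with SNX5, SNX6 or SNX32 in the complex that returns cargo to the Golgi beside retromer. Of these 5 genes, 1 (20%) was higher by at least 2-fold in the KIT-labelled library and 4 (80%) in the THY1-labelled library. The median difference was -3.62, and the shares over all genes were 39.5% and 41.1%. Snx5 was listed at 0 in the KIT-labelled library and was at 111 FPKM in the THY1-labelled library, the largest difference of the 61 genes. Snx2 was listed at 0 (labelled KIT) and was at 35.6 FPKM (labelled THY1). Snx1 stood at 7.37 FPKM in the KIT-labelled library and at 102 FPKM in the THY1-labelled library, and Snx6 at 13.7 FPKM (labelled KIT) and 48.3 FPKM (labelled THY1). Snx32 was the reverse, with 57.9 FPKM in the KIT-labelled library and 9.28 FPKM in the THY1-labelled library, a ratio of 6.24. In the KIT-labelled library it made up 80.8% of the summed level of Snx5, Snx6 and Snx32, against 5.51% in the THY1-labelled library. Snx32 shares 468 exonic bases with Cfl1 on the opposite strand (13.2% of its annotated exons), and Cfl1, which encodes the actin-severing cofilin, was at 39.4 FPKM (labelled KIT) and 15.0 FPKM (labelled THY1). The part of Cfl1 in the value of Snx32 was not tested.

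Among the other BAR nexins, SNX9 joins dynamin at the necks of clathrin-coated pits. Snx9 was listed at 0 in the KIT-labelled library and was at 71.4 FPKM in the THY1-labelled library. Its relatives were low in both libraries, Snx33 at 1.50 FPKM (labelled KIT) and 0.125 FPKM (labelled THY1) and Snx18 at 0.699 FPKM (labelled KIT) and 0.0843 FPKM (labelled THY1). The difference of Snx33 (1.15) fell within 2-fold (0.84) with a median ratio of 1. By the fragment estimate those 4 values rested on fewer than 3 fragments each. SNX4, which works with SNX7 or SNX30 in recycling and autophagy, had Snx4 at 5.75 FPKM in the KIT-labelled library and 3.12 FPKM in the THY1-labelled library, within 2-fold. Snx7 was listed at 0 in the KIT-labelled library and was at 9.88 FPKM in the THY1-labelled library, whereas Snx30 was at 1.10 FPKM (labelled KIT) and 1.21 FPKM (labelled THY1). Snx8, an endosome-to-Golgi nexin, was at 3.30 FPKM (labelled KIT) and 10.4 FPKM (labelled THY1).

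Nexins with a FERM domain bind sorting motifs of receptors and return these to the cell surface. Snx17, whose protein recycles integrins and lipoprotein receptors, was among the most abundant of the 61 genes in both libraries, at 131 FPKM in the KIT-labelled library and 68.6 FPKM in the THY1-labelled library. The difference of 0.93 lay just within 2-fold and passed it (1.20 and 1.15) when the libraries were scaled to equal upper quartiles or to equal sums without the noncoding RNA Rpph1. Exons of Snx17 overlap Eif2b4 (6.60% of their bases) and Zfp513 (5.27%) on the opposite strand. Eif2b4 was at 6.26 FPKM (labelled KIT) and 50.6 FPKM (labelled THY1), and Zfp513 at 47.3 FPKM (labelled KIT) and 15.1 FPKM (labelled THY1). The part of these genes in the value of Snx17 was not tested. Snx27, which adds a PDZ domain and links cargo to retromer, was at 12.2 FPKM in the KIT-labelled library and at 49.3 FPKM in the THY1-labelled library, a difference of -1.93. Snx31 was listed at 0 (labelled KIT) and was at 0.299 FPKM (labelled THY1).

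SNX13, SNX14, SNX19 and SNX25 are a family of larger nexins grouped by their PXA and C-terminal domains, and all but SNX19 also carry an RGS domain. Several are anchored in membranes at contacts between the endoplasmic reticulum and other organelles. All 4 genes were higher by at least 2-fold in the THY1-labelled library, against 41.1% of all genes, with a median difference of -2.85. Snx14, whose loss causes a cerebellar ataxia in humans, was at 2.23 FPKM in the KIT-labelled library, against 66.0 FPKM in the THY1-labelled library (a ratio of 29.5, THY1 over KIT). Snx13 was at 2.89 FPKM (labelled KIT) and 28.8 FPKM (labelled THY1), Snx25 at 3.06 FPKM (labelled KIT) and 24.0 FPKM (labelled THY1), and Snx19 at a listed 0 (labelled KIT) and 5.76 FPKM (labelled THY1). None of these 4 genes passed 3.06 FPKM in the KIT-labelled library.

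The remaining nexins, which carry a PX domain and were placed in none of the groups above, split. Of 9 that reached 1 FPKM in either library, 2 (22.2%) were higher by at least 2-fold in the KIT-labelled library. Another 4 (44.4%) were higher in the THY1-labelled library and 3 lay within 2-fold. Shares over all genes were 39.5% and 41.1%. Snx22, a short nexin, had the highest value of all 61 genes in both libraries, at 231 FPKM in the KIT-labelled library and 370.5 FPKM in the THY1-labelled library (difference -0.68, within 2-fold, and -1.24 with a median ratio of 1). Its annotated exons share 825 bases with Ppib on the opposite strand, or 28.5% of them, and Ppib, an abundant cyclophilin of the endoplasmic reticulum, was at 6.78 FPKM (labelled KIT) and 205 FPKM (labelled THY1). Whether the authors' counting used strand is not given in the sources used here, so the level of Snx22 is uncertain. Snx21 was at 95.8 FPKM in the KIT-labelled library and at 9.56 FPKM in the THY1-labelled library, a ratio of 10.0, while its relative Snx20 was listed at 0 in both. Snx15, which adds a domain that binds ESCRT-III proteins, was at 25.0 FPKM (labelled KIT) and 1.74 FPKM (labelled THY1), and its difference of 3.25 was the largest toward the KIT-labelled library with a pseudocount of 1. With a pseudocount of 0.1 it was 3.77, and Vps72 had the largest at 4.54. By the fragment estimate Snx15 rested on about 14.9 fragments in the KIT-labelled library and 6.65 in the THY1-labelled library.

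Snx3 and Snx10 lay within 2-fold, though not under every scaling. Snx3, whose protein brings retromer to the Wnt carrier Wntless, was at 17.4 FPKM in the KIT-labelled library and 29.8 FPKM in the THY1-labelled library, a difference of -0.75 that passed 2-fold (-1.27) with a median ratio of 1. Its X-linked relative Snx12 was at 1.78 FPKM (labelled KIT) and 17.4 FPKM (labelled THY1). Snx10, needed in mice for the acid-secreting border of osteoclasts, was at 55.8 FPKM in the KIT-labelled library and 33.1 FPKM in the THY1-labelled library, a difference of 0.74 that just passed 2-fold with equal upper quartiles, while Snx11 was at 1.74 FPKM (labelled KIT) and 12.3 FPKM (labelled THY1). Snx29 was listed at 0 in the KIT-labelled library and at 18.5 FPKM in the THY1-labelled library, and Snx16 at 0 (labelled KIT) and 3.91 FPKM (labelled THY1). Snx24 was listed at 0 (labelled KIT) and was at 0.875 FPKM (labelled THY1).

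**Figure D2:**
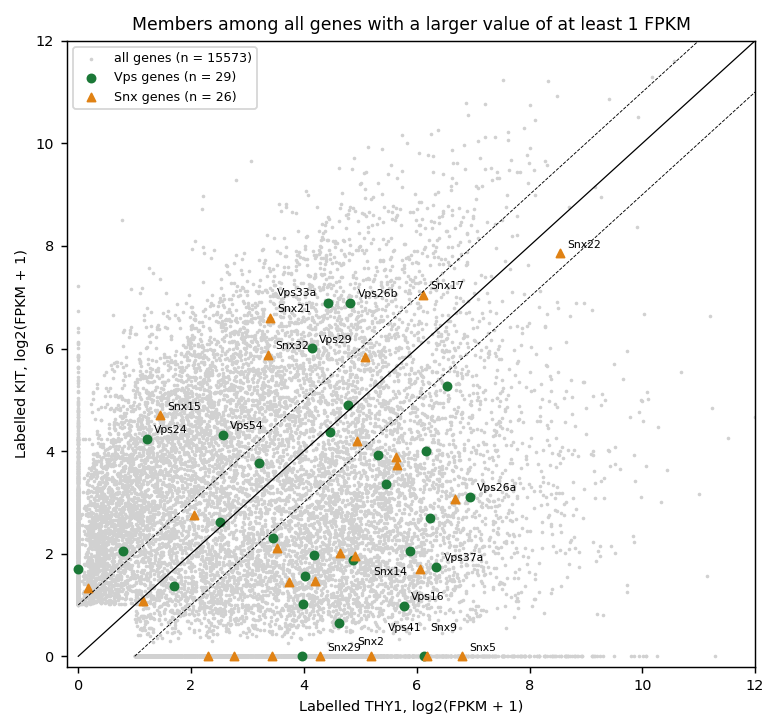
Each gene's level in the KIT-labelled library (vertical) against the THY1-labelled library (horizontal), both as log2(FPKM + 1), for 15573 genes in grey, 29 Vps genes as green circles and 26 Snx genes as orange triangles; 4 genes lie beyond the axes. Dashed lines mark 2-fold, below which 33 of the 55 coloured genes lie, and the coloured points on the horizontal axis are genes listed at 0 in the KIT-labelled library.

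HOPS and CORVET are the tethers that fuse late and early endosomes. They share the core subunits VPS11, VPS16, VPS18 and VPS33A, to which HOPS adds VPS39 and VPS41 and CORVET adds VPS8 and the product of Tgfbrap1. VPS33B forms a separate tether with the product of Vipar. Of these 8 genes, 2 (25%) were higher by at least 2-fold in the KIT-labelled library and 6 (75%) in the THY1-labelled library. The median difference was -2.27, and the shares over all genes were 39.5% and 41.1%. Vps41 was listed at 0 in the KIT-labelled library and was at 69.3 FPKM in the THY1-labelled library, and Vps39 was at 1.95 FPKM (labelled KIT) and 15.3 FPKM (labelled THY1). Vps8 was at 0.559 FPKM in the KIT-labelled library, about 1.03 fragments by the estimate, and at 23.5 FPKM in the THY1-labelled library.

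The core subunits did not share a direction. Vps33a, whose product grips the SNARE proteins during fusion, was at 117 FPKM in the KIT-labelled library and at 20.4 FPKM in the THY1-labelled library, a difference of 2.47. Vps16, whose product holds VPS33A in the complex, was at 0.976 FPKM in the KIT-labelled library and at 53.6 FPKM in the THY1-labelled library, a difference of -4.79. By the fragment estimate the value of Vps16 in the KIT-labelled library rested on about 1.13 fragments. These genes of direct partners lay on opposite sides of the comparison. Since 39.5% of all genes were higher in the KIT-labelled library and 41.1% in the THY1-labelled library, this is not a result about the complex. Vps11 was at 9.31 FPKM (labelled KIT) and 42.8 FPKM (labelled THY1) and Vps18 at 3.15 FPKM (labelled KIT) and 0.723 FPKM (labelled THY1). The difference of Vps18 (1.27) fell within 2-fold (0.86) after scaling to a median ratio of 1. Vps33b was at 3.94 FPKM in the KIT-labelled library and 9.96 FPKM in the THY1-labelled library, a difference of -1.15 that lay within 2-fold with equal upper quartiles (-0.93) or equal sums without Rpph1 (-0.97).

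Promoter windows, from 250 bases before to 50 after the annotated start, were at hand for 42 of the 61 genes. They were searched for the palindrome TCACGTGA, the core of the CLEAR element bound by TFEB and related factors at lysosomal genes, and for TGACGTCA, the cyclic AMP response element, each of which reads the same on both strands. The CLEAR core occurred in 3 of the 42 genes (7.14%), against 1.12% of all 27025 genes with a window. By window it was in 4 of 53 (7.55%), among them overlapping windows of Vps26a. The shares were 0.974% of all 32851 windows and 1.23% of the windows of protein-coding genes. The response element occurred in none of the 53 windows, against 1.79% of all windows. The shorter E-box CACGTG, which lies inside the CLEAR core, was in 7 of the 53 windows (13.2%) and in 7.15% of all. Those 7 include the 4 windows with the CLEAR core, so the E-box share is not a separate result. Over all windows, 320 of the 2349 with an E-box held the CLEAR core. A match is a description of the letters and not of binding. The 3 genes are the tether genes Vps16 and Vps33a and the retromer gene Vps26a. Vps33a was higher in the KIT-labelled library, and Vps16 and Vps26a were higher in the THY1-labelled library. Their windows are shown with the CLEAR core in capitals, from RefSeq on GRCm38.p6, for Vps16 at chr2:130424070-130424369 on the plus strand, for Vps33a at chr5:123572966-123573265 on the minus strand and for Vps26a at chr10:62486549-62486848 on the minus strand.
Vps16: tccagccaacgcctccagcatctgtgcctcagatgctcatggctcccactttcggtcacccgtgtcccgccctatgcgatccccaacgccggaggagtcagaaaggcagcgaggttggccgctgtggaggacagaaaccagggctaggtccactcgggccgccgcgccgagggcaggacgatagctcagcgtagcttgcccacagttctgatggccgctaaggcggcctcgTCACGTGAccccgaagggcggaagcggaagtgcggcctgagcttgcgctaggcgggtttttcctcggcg
Vps33a: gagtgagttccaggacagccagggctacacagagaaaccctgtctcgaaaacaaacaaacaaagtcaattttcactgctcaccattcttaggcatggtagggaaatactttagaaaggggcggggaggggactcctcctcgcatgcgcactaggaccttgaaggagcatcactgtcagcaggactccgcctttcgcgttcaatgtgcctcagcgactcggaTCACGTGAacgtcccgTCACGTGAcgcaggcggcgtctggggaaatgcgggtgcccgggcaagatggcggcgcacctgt
Vps26a: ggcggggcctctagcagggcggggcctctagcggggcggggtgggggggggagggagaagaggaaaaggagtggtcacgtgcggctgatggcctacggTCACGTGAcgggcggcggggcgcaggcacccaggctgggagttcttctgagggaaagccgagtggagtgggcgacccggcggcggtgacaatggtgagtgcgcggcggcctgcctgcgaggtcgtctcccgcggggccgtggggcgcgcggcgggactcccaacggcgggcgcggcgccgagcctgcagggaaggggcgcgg
Counting from the annotated start, the core begins at position -19 in Vps16, at -29 and again at -13 in Vps33a, and at -152 in Vps26a. A second annotated start of Vps26a has its own window, with a core at -183. The 53 windows were rich in CpG, with a median of 23 CpG dinucleotides and 63% G and C, against 13 and 56.3% over windows of protein-coding genes.

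GARP tethers carriers from endosomes to the Golgi. Its 3 listed subunits each behaved differently. Vps54 was at 19.0 FPKM in the KIT-labelled library and at 4.89 FPKM in the THY1-labelled library, a difference of 1.77. A point mutation in Vps54 underlies the wobbler mouse, which has motor neuron disease and males whose sperm lack a proper acrosome. Vps53 was at 28.7 FPKM in the KIT-labelled library and 26.4 FPKM in the THY1-labelled library, within 2-fold. Vps52 was at 2.67 FPKM (labelled KIT) and 28.1 FPKM (labelled THY1). Ccdc132, which encodes the subunit that replaces VPS54 in the endosomal recycling tether, was at 13.0 FPKM in the KIT-labelled library and 19.7 FPKM in the THY1-labelled library.

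ESCRT complexes sort ubiquitin-tagged receptors into vesicles inside the endosome and also cut the last bridge between dividing cells. Germ cells are unusual in keeping these bridges open. Of 8 genes of this group that reached 1 FPKM in either library, 1 (12.5%) was higher by at least 2-fold in the KIT-labelled library. Another 5 (62.5%) were higher in the THY1-labelled library and 2 lay within 2-fold. Shares over all genes were 39.5% and 41.1%. In ESCRT-I, Vps28 was at 14.1 FPKM in the KIT-labelled library and 38.8 FPKM in the THY1-labelled library. Vps37a was at 2.35 FPKM (labelled KIT) and 80.6 FPKM (labelled THY1), a difference of -4.61. Vps37b was at 12.6 FPKM (labelled KIT) and 8.16 FPKM (labelled THY1), within 2-fold, and 32.9% of its annotated exon bases overlap Hip1r on the opposite strand, which was at 27.4 FPKM in the KIT-labelled library and 27.2 FPKM in the THY1-labelled library. Vps37c was at 1.58 FPKM (labelled KIT) and 2.24 FPKM (labelled THY1), and Vps37d was listed at 0 (labelled KIT) and was at 0.179 FPKM (labelled THY1). The leading form was thus Vps37b in the KIT-labelled library (76.2% of the summed level of the 4 genes) and Vps37a in the THY1-labelled library (88.4%).

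In ESCRT-II both listed genes were higher in the THY1-labelled library. Vps36 was at 3.13 FPKM in the KIT-labelled library and 57.7 FPKM in the THY1-labelled library, and Vps25 at 2.90 FPKM (labelled KIT) and 17.1 FPKM (labelled THY1). Vps25 shares 67.2% of its annotated exon bases with Ramp2 on the same strand, which was listed at 0 in both libraries. Vps24, now named Chmp3, encodes a subunit of the ESCRT-III filament and was the exception. It was at 17.9 FPKM in the KIT-labelled library and 1.33 FPKM in the THY1-labelled library, a difference of 3.02. By the fragment estimate these values rested on about 17.4 and 8.26 fragments. The ATPase that takes the filament apart was represented almost wholly by Vps4a, at 37.7 FPKM in the KIT-labelled library and 91.7 FPKM in the THY1-labelled library, while Vps4b was listed at 0 (labelled KIT) and was at 0.930 FPKM (labelled THY1). The difference of Vps4a (-1.26) fell just within 2-fold (-0.99) after scaling to the upper quartile. Processed pseudogenes match Vps4a over 60.4% of its transcript at 90.3% identity, Vps4b over 28.7% at 96.0% and Vps24 over 25.3% at 95.5%, so the values of these 3 genes depend on how reads with several matches were treated.

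The VPS13 proteins are long tubes that move lipids between organelles in contact. Of the 4 genes, 3 (75%) were higher by at least 2-fold in the THY1-labelled library, against 41.1% of all genes, and 1 lay within 2-fold. Vps13a, the gene of human chorea-acanthocytosis, was at 5.50 FPKM in the KIT-labelled library and 74.2 FPKM in the THY1-labelled library, a difference of -3.53. Vps13c was listed at 0 (labelled KIT) and was at 14.7 FPKM (labelled THY1), and Vps13d was at 1.03 FPKM (labelled KIT) and 14.8 FPKM (labelled THY1). Vps13b, the gene of human Cohen syndrome, which acts at the Golgi, lay within 2-fold, at 19.6 FPKM in the KIT-labelled library and 21.0 FPKM in the THY1-labelled library. It led the family in the KIT-labelled library (75.0% of its summed level) and Vps13a led it in the THY1-labelled library (59.5%). With transcripts of 10838 to 15849 bases these genes collect many fragments per FPKM. By the fragment estimate the values in the KIT-labelled library rested on about 21.8 fragments for Vps13a and 98.5 for Vps13b. That of Vps13d rested on only about 5.94, and Vps13c was listed at 0 there.

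The remaining VPS genes belong to none of these complexes. Vps45, which encodes a partner of endosomal SNAREs, was at 5.15 FPKM in the KIT-labelled library and 4.67 FPKM in the THY1-labelled library. Vps72 shares the name but encodes a nuclear chaperone of the histone variant H2A.Z. It was at 2.23 FPKM in the KIT-labelled library, about 1.75 fragments by the estimate, and listed at 0 in the THY1-labelled library.

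**Figure D3:**
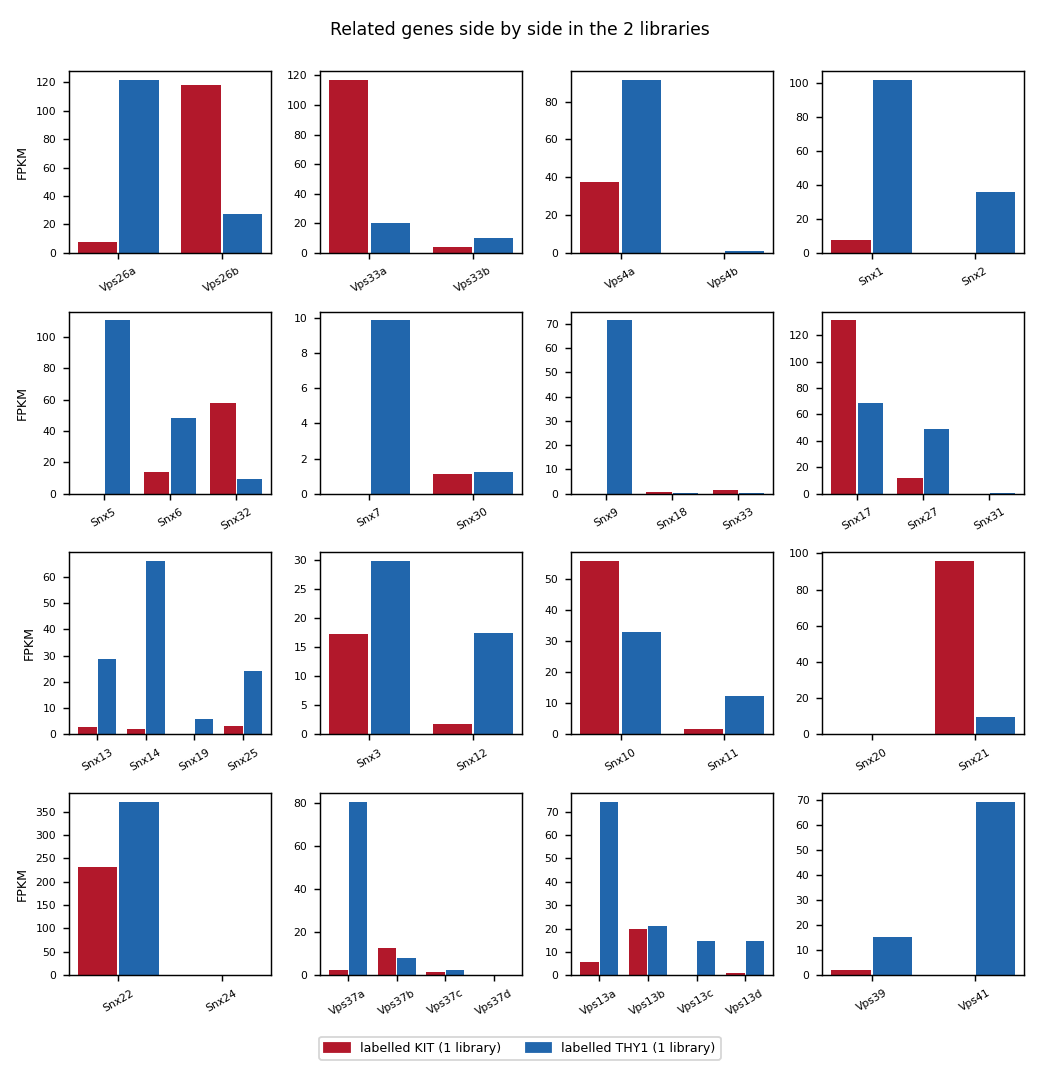
Levels in FPKM of related genes in 16 groups, with red bars for the KIT-labelled library on the left and blue bars for the THY1-labelled library on the right of each gene, and an own linear axis from 0 for each group. The taller red and blue bars belong to different genes in 8 of the 16 groups, as for Vps26a and Vps26b.

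Of 16 groups of related genes, the same gene had the highest level in both libraries in 8, and different genes did in the other 8. Spearman's rho between the libraries was 0.11 across the 15573 genes that reached 1 FPKM, a minimum that takes out genes low in both. Across the 55 of the 61 genes that reached 1 FPKM it was 0.12. Without the minimum it was 0.48 across all 20662 symbols and 0.29 across the 61 genes. Of the 15573 genes, 80.6% differed by at least 2-fold in either direction. The count of 8 is therefore not a result about these groups. A change in which the leader of each library passed 50 FPKM was seen for Vps26b in the KIT-labelled library against Vps26a in the THY1-labelled library, and for Snx32 against Snx5. In the groups led by Snx30 against Snx7, by Snx33 against Snx9 and by Vps39 against Vps41, the leader in the KIT-labelled library was at 1.10, 1.50 and 1.95 FPKM, so these changes rest on a listed 0 of the other gene and few fragments. The family of SNX13 is similar, with Snx25 at 3.06 FPKM and Snx13 at 2.89 FPKM in the KIT-labelled library. Vps33a, Vps4a, Snx1, Snx17, Snx3, Snx10, Snx21 and Snx22 led their groups in both libraries.

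**Figure D4:**
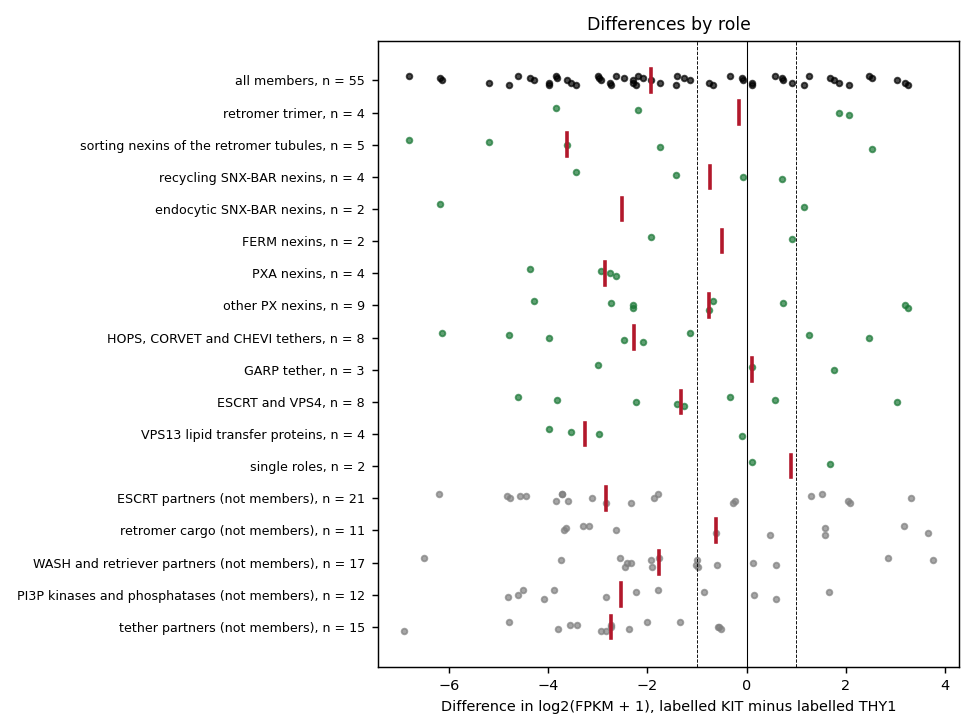
Difference in log2(FPKM + 1), labelled KIT minus labelled THY1, of each gene that reached 1 FPKM in either library, for all 55 members (black), for each role (green) and for partner genes that are not members (grey), with medians as red bars and 2-fold as dashed lines. The medians run from -3.62 for the nexins of the retromer tubules to 0.90 for Vps45 and Vps72.

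Partner genes of the same routes that carry other names were mostly also higher in the THY1-labelled library. Of all genes that reached 1 FPKM, 39.5% were higher by at least 2-fold in the KIT-labelled library and 41.1% in the THY1-labelled library. With the minimum of about 10 fragments the shares were 30.8% and 51.4%, but the partner lists were counted only at the minimum of 1 FPKM. Of 21 further ESCRT genes, 5 (23.8%) were higher by at least 2-fold in the KIT-labelled library and 14 (66.7%) in the THY1-labelled library (median -2.83). Fam125a, an ESCRT-I subunit, was listed at 0 in the KIT-labelled library and was at 72.7 FPKM in the THY1-labelled library. The cargo-binding ESCRT-0 genes ran likewise, Stam at a listed 0 (labelled KIT) and 27.2 FPKM (labelled THY1) and Stam2 at 0.706 FPKM (labelled KIT) and 45.6 FPKM (labelled THY1). Ubap1, another ESCRT-I subunit, was the reverse at 185 FPKM in the KIT-labelled library and 42.6 FPKM in the THY1-labelled library. Of 15 genes for tether partners and endosomal SNAREs, 0 were higher by at least 2-fold in the KIT-labelled library and 12 (80%) in the THY1-labelled library (median -2.73). Hook1, which links endosomes to microtubules and in mouse spermatids holds the manchette, was at 3.66 FPKM (labelled KIT) and 556 FPKM (labelled THY1), and Vipar, the partner of VPS33B, at 4.36 FPKM (labelled KIT) and 56.3 FPKM (labelled THY1). Eea1 and Stx12 also differed widely, at 0.217 FPKM (labelled KIT) and 32.5 FPKM (labelled THY1) and at 1.22 FPKM (labelled KIT) and 29.9 FPKM (labelled THY1).

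The lipid that recruits nexins is made by the kinase encoded by Pik3c3. Of 12 genes for kinases and phosphatases of this lipid, 1 (8.33%) was higher by at least 2-fold in the KIT-labelled library. Another 8 (66.7%) were higher in the THY1-labelled library (median -2.53), where the shares over all genes were 39.5% and 41.1%. Listed at 0 in the KIT-labelled library were 6 of the 12, and 2233 of all 15573 genes that reached 1 FPKM. The 6 of this list included Pik3c3 itself (21.6 FPKM in the THY1-labelled library) and the PIKfyve complex genes Pikfyve (23.5 FPKM), Fig4 (26.8 FPKM) and Vac14 (15.9 FPKM). Vac14 was singled out after its value was seen. Mtmr14, a phosphatase, was at 100.3 FPKM in the KIT-labelled library and 31.2 FPKM in the THY1-labelled library. A further list held 17 genes of WASH, COMMD and retriever proteins and of partners, Tbc1d5 and Ankrd27 among them. Of these 17, 2 (11.8%) were higher by at least 2-fold in the KIT-labelled library and 10 (58.8%) in the THY1-labelled library (median -1.77). The WASH subunit gene Ccdc53 was listed at 0 in the KIT-labelled library and at 88.9 FPKM in the THY1-labelled library, Ccdc93 was at 0.351 FPKM (labelled KIT) and 17.0 FPKM (labelled THY1), Commd6 was at 12.5 FPKM (labelled KIT) and at a listed 0 (labelled THY1), and Commd3 was the most abundant at 137 FPKM (labelled KIT) and 206 FPKM (labelled THY1).

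Of 11 cargo proteins carried by retromer and its nexins, the genes of 4 (36.4%) were higher by at least 2-fold in the KIT-labelled library and those of 5 (45.5%) in the THY1-labelled library, and 2 lay within 2-fold (median -0.61). These shares are close to the 39.5% and 41.1% over all genes. Vldlr, a lipoprotein receptor, was at 51.2 FPKM in the KIT-labelled library and 3.13 FPKM in the THY1-labelled library. Atg9a, the lipid scramblase of autophagy, was at 4.49 FPKM (labelled KIT) and 69.6 FPKM (labelled THY1), and the iron transporter gene Slc11a2 was at 1.56 FPKM (labelled KIT) and 31.0 FPKM (labelled THY1). The lists of partner genes were drawn up from known complexes with earlier results of these data known, and the genes named from them were mostly those with the largest differences or levels.

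Properties of the transcripts were set beside the differences. Across the 55 genes, which share their libraries and are not replicates, Spearman's rho between transcript length and difference was -0.099, against -0.11 over 13808 genes with an annotated length. The median length was 3364 bases for the 11 genes higher in the KIT-labelled library and 3199 bases for the 33 higher in the THY1-labelled library. Exons of 23 of the 61 genes overlap another annotated gene. Without them 7 of 32 genes (21.9%) were higher by at least 2-fold in the KIT-labelled library and 20 (62.5%) in the THY1-labelled library. The median difference was -2.01. The shares over all genes were 39.5% and 41.1%, but genes other than the 61 were not screened for exon overlap. Vps26b, Vps33a, Snx15 and Vps54, all higher in the KIT-labelled library, and Vps26a, Snx1, Snx9 and Vps41, all higher in the THY1-labelled library, have no such overlap. Pseudogenes match at least 20% of the transcript in 6 of the 61 genes (Snx2, Snx4, Vps24, Vps4a, Vps4b and Vps72).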

How the data were processed

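Total RNA was depleted of ribosomal RNA and sequenced as directional libraries, per the labels' protocols. The deposited tables of the 2 spermatogonial samples pair each gene symbol with a decimal value and name no unit. They were read as FPKM made by the authors, since the submitters' processing notes name Cufflinks 2.1.1. The same notes mention TopHat 1.4.1, CASAVA and mm9, without roles. The annotation used and how reads with several matches were treated were not given in the sources. Tables were tied to samples as recorded in the series, and groups came from the titles.

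Differences are of log2(FPKM + 1), KIT minus THY1, a scale that compresses changes at low levels. Genes that reached 1 FPKM in either library were counted by a size of 2-fold. The worth of a fragment was estimated as the product of FPKM and transcript length, at percentile 5 of values above 0 (2736 for KIT and 427 for THY1), over genes with 1 annotated transcript above 1000 bases. Lengths, exon overlaps and transcripts came from GENCODE M21 and promoters from RefSeq, both on a later build than mm9, so no coordinate was joined to the files. Of the 61 symbols, 60 matched RefSeq by symbol and Vps24 by synonym. Copies were sought with BLAST 2.17.0 (at least 90% identity over at least 200 bases, and at least 20% of the transcript). Scripts ran in Python 3.11.15 with pandas 2.3.3, numpy 2.4.6 and scipy 1.17.1.

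The genes and lists were chosen with earlier results of these data known. Values in both libraries may be given for each of the 61 genes. Differences are given in full mainly for the 8 with the largest difference in each direction (5 FPKM or more in either library) and the 5 with the highest mean, and for others where a setting changes the call. Partner genes are named by the 3 largest differences and the highest mean of each list, and others are chosen after their values were seen (Vipar, Ccdc132 and Vac14, and genes that share exons with the 61). Alternatives were a pseudocount of 0.1, 3 scalings, no minimum or 5 FPKM, and genes above 0 in both libraries. A minimum of 10 approximate fragments and leaving out those of the 61 genes with exon overlap were added after the data were seen.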

Additional observations from a re-analysis of the deposited data

How the results depend on the processing

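The counts of 11 genes higher in the KIT-labelled library and 33 higher in the THY1-labelled library stayed between 8 and 13 and between 24 and 35 under 8 of 9 alternatives, and the median difference of -1.93 stayed between -2.29 and -1.26. Across these 8 alternatives 45 to 61 genes were counted, with shares of 16% to 23.6% (labelled KIT) and 53.3% to 66% (labelled THY1). The shares over all genes ran from 29.8% to 42.4% and from 31.0% to 51.4%. With no minimum the counts could not change, since a gene below 1 FPKM in both libraries cannot reach 2-fold on this scale. Leaving out those of the 55 genes with exon overlap gave 7 and 20, because only 32 were then counted. Scaling moved the median of all genes, to -0.57 with a median ratio of 1, to 0.26 with the same upper quartile and to 0.22 with the same sum without Rpph1. With a minimum of 5 FPKM the median of all genes was -0.40, and over genes above 0 in both libraries it was 0.42. Near 0, signs turned with scaling. With a median ratio of 1, the differences of Vps53 (also the median of the GARP genes) and Vps45 became -0.42 and -0.34. With the same upper quartile, Vps13b, Snx30 and the retromer trimer median became 0.16, 0.074 and 0.10, and with the same sum without Rpph1 0.12, 0.047 and 0.059. The median of the endocytic BAR nexins, -2.51 over 2 genes, became 0.65 with no minimum and 1.15 over the single gene above 0 in both libraries. Of 55 genes, 43 kept direction and side of 2-fold under every alternative that could be computed for them. Much of this was fixed in advance. Changing which genes were counted left each difference as it was, so only the pseudocount and the 3 scalings could alter one. Scaling multiplied the values of the KIT-labelled library, so it could not alter the 9 of the 55 genes listed at 0 there. Low levels in the KIT-labelled library rest on few fragments by the low-end estimate, and the depth itself is unknown. No paired analysis was possible because each group analysed has 1 library.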
